A study of Mus musculus with 6 samples.

Results

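The histone genes described here are the 81 genes of 38926 in the deposited table whose symbols begin with Hist1h, Hist2h, Hist3h, Hist4h or H2af. The rule uses the symbol alone and no expression value, but it was chosen with earlier results of these data known. The 70 Hist symbols are called replication-dependent below, after the class most of them belong to, and the 11 H2af symbols are called replacement histones. RNA was sequenced from cells sorted from femur and tibia marrow of C57BL/6 mice aged 8 to 12 weeks. The sort took cells without lineage markers and with Sca1 and cKit (LSK cells), a gate that holds haematopoietic stem cells and early progenitors. The labels give 3 libraries as wild type (WT) and 3 as a double knockout of Drd2 and Drd3 (KO), the genes of 2 dopamine receptors. They also state that neither group was treated. The labels name no Cre driver and no clone, do not give the sex of the mice, and do not say whether a library came from 1 animal or from several.

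Histones are the proteins that DNA is wound around. The core histones, H2A, H2B, H3 and H4, form the nucleosome, and linker histone H1 binds the DNA between nucleosomes. Replication-dependent genes lie in clusters, are transcribed mainly in S phase, when DNA is copied, and give short mRNAs that end in a stem-loop in place of a poly(A) tail. Most replacement histones come from single genes with polyadenylated mRNAs and are put into chromatin throughout the cell cycle. Blood-forming tissue holds both resting and dividing cells, and replication-dependent histone mRNA is mainly made in those that copy their DNA.

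The stem-loop is shown first because it is what sets the mRNAs of the replication-dependent class apart. It was searched on the transcribed strand of GENCODE M21 transcripts (build GRCm38) as GG, any 3 bases, TTTT, any base, A, 3 bases that pair with the first 3, and CC. A match was found in 44 of the 70 replication-dependent genes and in 1 of the 11 replacement genes, H2afx. Over the whole annotation it was found in 57 of 55450 genes (0.103%). H2afx is counted as a replacement gene by its symbol. The sequences of the 3 replication-dependent genes that fell in KO libraries, of the most abundant replication-dependent gene and of H2afx follow, 5′ to 3′, with the 16 bases of the stem-loop in capitals.
Hist1h4d: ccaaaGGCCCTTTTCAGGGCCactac
Hist1h4i: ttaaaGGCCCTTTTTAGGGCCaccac
Hist2h2ac: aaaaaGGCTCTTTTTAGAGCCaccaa
Hist1h2ao: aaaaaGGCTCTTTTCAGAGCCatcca
H2afx: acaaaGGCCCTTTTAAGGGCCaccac
The capitals lie in the 3′ UTR, at chr13:23581950-23581965 (plus strand), chr13:22040966-22040981 (minus strand), chr3:96220418-96220433 (minus strand), chr13:21810898-21810913 (plus strand) and chr9:44335240-44335255 (plus strand). The loop differed by a base and the stem by paired bases, and the form of Hist1h2ao, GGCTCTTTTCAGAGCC, was the most frequent, with 26 of the 45 matches. Of the 26 replication-dependent genes without a match, 15 have a gene model with fewer than 20 bases after the coding region and 3 have no coding region, so these models hold little or no sequence in which the stem-loop could be found.

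The libraries held 5193003 to 7070340 reads, recovered from the deposited FPKM values, a level scaled by the authors for gene length and for depth. At this depth 1 read in a gene of 500 bases stood for 0.277 to 0.369 FPKM. Drd2 was at 0 in every library. Drd3 was at 0 in the WT libraries and at 1.62, 3.08 and 3.04 FPKM in KO replicates 1, 2 and 3, at face value the reverse of the labels. Values per gene do not show which part of Drd3 was read, so they do not settle whether the labels are right. WT and KO below therefore mean the libraries labelled as such. KO replicates 1 and 3 also stood apart from KO replicate 2. They held 3182 and 1173 FPKM of the immunoglobulin light chain gene Igkc against 4.93 FPKM in KO replicate 2 and 1.98 to 2.48 FPKM in WT libraries. They also held no Ddx3y, a gene of the Y chromosome, against 15.1 FPKM in KO replicate 2 and 12.5 to 13.9 FPKM in WT libraries, and were the only 2 of the 6 libraries with Xist, at 1.96 and 2.01 FPKM. These transcripts of sex thus set KO replicates 1 and 3 apart from every WT library as well. Of the sort markers, Kit was at 105 to 150 FPKM in WT and 82.5 to 129 FPKM in KO libraries, and Ly6a, which encodes Sca1, at 110 to 129 FPKM in WT and 114 to 161 FPKM in KO libraries, so both were present in every library.

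Of the 81 histone genes, 14 were at 0 in every library, 37 were above 0 with a mean under 1 FPKM and were not tested, and 30 reached a mean of 1 FPKM over the 6 libraries. The 30 tested genes were 24 of the 70 replication-dependent and 6 of the 11 replacement genes. In limma's test on log2(FPKM + 1), adjusted by Benjamini-Hochberg over all 11371 genes tested, 4 histone genes were lower in KO libraries at an adjusted p under 0.05 and 0 were higher. They were H2afy, Hist1h4d, Hist2h2ac and Hist1h4i. Of all genes tested, 5.43% were lower and 5.48% higher by the same rule. Nothing in the labels states that replicates were separate animals, and the p-values therefore reflect only the spread among these 6 libraries, which may be technical.

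**Figure D1:**
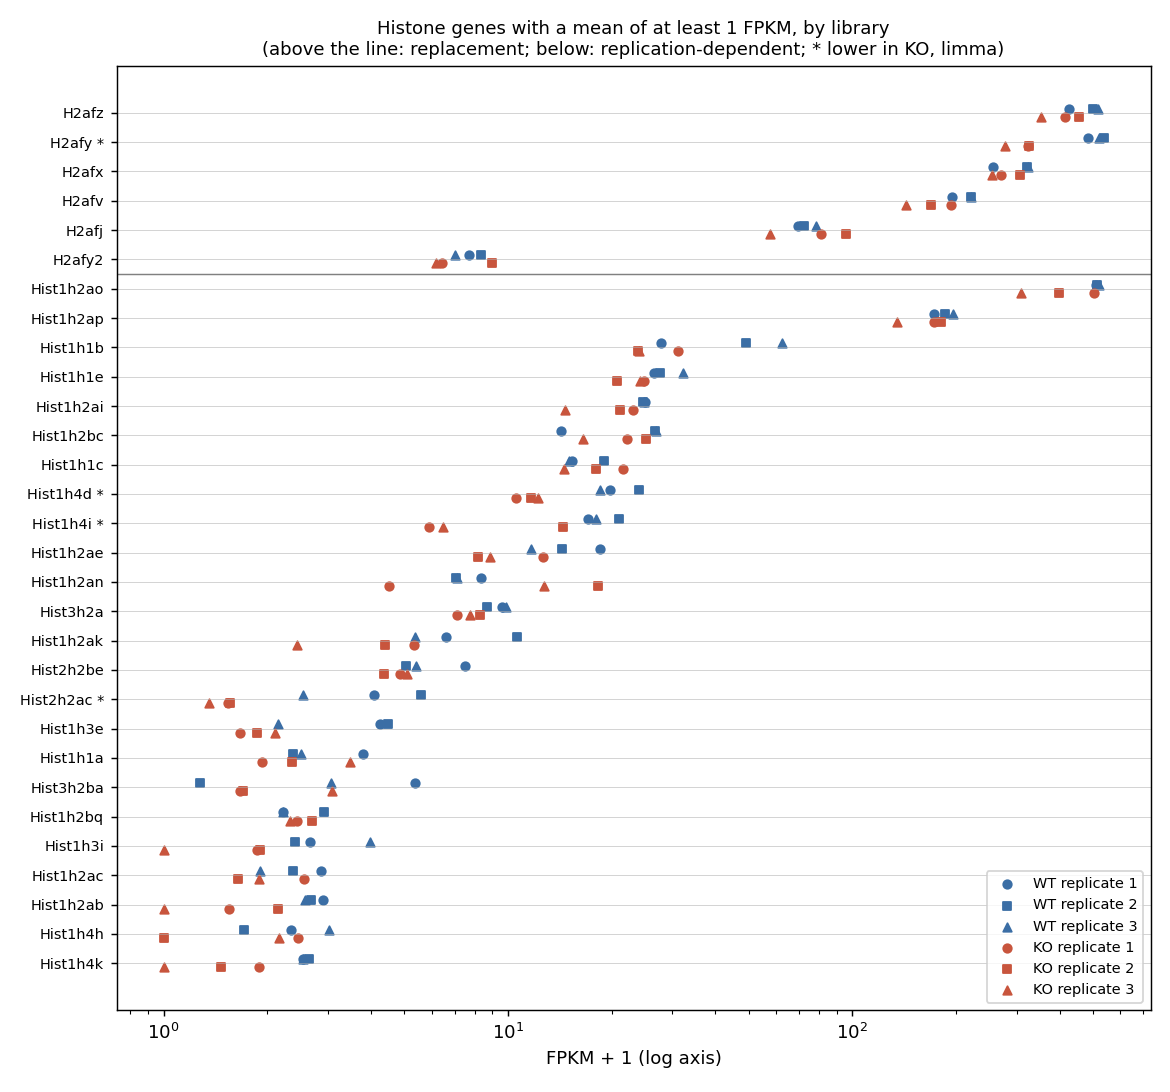
FPKM + 1 (log axis) of the 30 tested histone genes in each of the 6 libraries; blue symbols are WT, red symbols KO, and circle, square and triangle are replicates 1, 2 and 3. Mean levels ran from 1.01 FPKM for Hist1h4k to 458 FPKM for Hist1h2ao, and the KO symbols of the 4 genes marked with an asterisk all lie to the left of the WT symbols.

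Among the core histones, 2 of the 4 tested H4 genes fell in KO libraries. Hist1h4d, a histone H4 gene with 1 exon at chr13:23581598-23582735 (plus strand), was at 18.7, 23.0 and 17.5 FPKM in WT and 9.52, 10.7 and 11.3 FPKM in KO replicates 1, 2 and 3. All KO libraries were below all WT libraries. It fell by 0.85 ± 0.14 (SE, n = 3 and 3) on the log2(FPKM + 1) scale, with a limma adjusted p of 0.00649, and the KO mean was 53.1% of the WT mean. The call was lost with voom on recovered reads (limma adjusted p = 0.0658) and without KO replicates 1 and 3 (limma adjusted p = 0.0697), while the difference kept its size, at -0.90 and -0.82.

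Hist1h4i, another H4 gene with 1 exon, at chr13:22040636-22041362 (minus strand), was at 16.1, 20.01 and 17.0 FPKM in WT and 4.90, 13.5 and 5.49 FPKM in KO replicates 1, 2 and 3. The groups did not overlap, but KO replicate 2 was much nearer to the WT libraries than KO replicates 1 and 3, the libraries high in Igkc. It fell by 1.181 ± 0.297 (SE, n = 3 and 3; limma adjusted p = 0.0358). Without KO replicates 1 and 3 the difference was -0.36 (limma adjusted p = 0.228), and the call was lost in 7 of 13 alternative analyses. KO replicates 1 and 3 were also the only libraries with Xist and without Ddx3y. The part of the Igkc-expressing cells in this result and that of sex cannot be told apart, and neither was tested.

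The other tested H4 genes were low. Hist1h4k was at 1.54, 1.64 and 1.54 FPKM in WT and 0.888, 0.464 and 0 FPKM in KO libraries, again without overlap, and its difference of -0.87 ± 0.27 did not pass (limma adjusted p = 0.0709). These values rest on 3 recovered reads in each WT library and at most 2 in a KO library. Hist1h4h ranged from 0.717 to 2.02 FPKM in WT and from 0 to 1.46 FPKM in KO libraries, and the groups overlapped. Summed over all 13 H4 genes, the level was 39.9, 50.5 and 42.5 FPKM in WT and 19.0, 26.7 and 19.98 FPKM in KO libraries, 49.5% of the WT mean and without overlap.

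Histone H3 genes were detected at the lowest level of the core histones. Hist1h3e was at 3.26, 3.47 and 1.15 FPKM in WT and 0.663, 0.865 and 1.102 FPKM in KO libraries, a difference of -0.88 ± 0.30 (limma adjusted p = 0.0922). Hist1h3i was at 1.66, 1.41 and 2.98 FPKM in WT and 0.861, 0.899 and 0 FPKM in KO libraries, a difference of -0.95 ± 0.32 (limma adjusted p = 0.0881). Both had KO libraries below all WT libraries without passing the test, and Hist1h3i rests on 24 recovered reads in all. The summed level of the 12 H3 genes was 7.45, 8.34 and 5.78 FPKM in WT and 3.12, 4.21 and 2.15 FPKM in KO libraries, 44.0% of the WT mean.

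H2A genes made up most of the replication-dependent RNA. Hist2h2ac, an H2A gene of the smaller cluster on chromosome 3 with 1 exon at chr3:96220361-96220880 (minus strand), was at 3.08, 4.59 and 1.54 FPKM in WT and 0.533, 0.557 and 0.354 FPKM in KO replicates 1, 2 and 3. The recovered reads behind these values were 10, 14 and 5 in WT and 2, 2 and 1 in KO libraries. It fell by 1.39 ± 0.29 (SE, n = 3 and 3; limma adjusted p = 0.0186), the widest difference among the 30 tested histone genes. The groups did not overlap, and the gene reached a mean of 1 FPKM only through its WT libraries, with a KO mean of 0.481 FPKM. The call was lost in 4 of the 12 alternative analyses that tested the gene, among them those without WT replicate 1 (limma adjusted p = 0.0712), without WT replicate 2 (0.0761) and without KO replicates 1 and 3 (0.149).

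Hist1h2ao, an H2A gene with 1 exon at chr13:21810465-21810944, was the most abundant replication-dependent gene, at 508, 513 and 519 FPKM in WT and 503, 396 and 308 FPKM in KO replicates 1, 2 and 3. The WT libraries lay within a few percent of each other and the KO libraries were spread from just below them to well below. Its difference was -0.38 ± 0.16 (limma adjusted p = 0.152), with a 95% confidence interval of -0.73 to -0.03. Without KO replicate 1, the library nearest to WT, it fell by 0.55 and passed (limma adjusted p = 0.0403). Hist1h2ap was at 171, 184 and 195 FPKM in WT and 171, 180 and 134 FPKM in KO libraries, with overlap (difference -0.19, 95% confidence interval -0.47 to 0.08). The 2 genes share 93.5% of the 50-base windows of Hist1h2ao and made up 72.6 to 78.5% of the summed replication-dependent level in every library. How the authors' counting divided reads between them was not given in the sources used here, so their separate levels are uncertain.

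Sharing of sequence was common in the class: 34 of the 81 genes share at least 50% of their 50-base windows with another gene, and their separate values carry the same uncertainty. Hist2h2aa1 and Hist2h2aa2, near-identical H2A genes, were listed at 0 in every library. Hist1h4d (10.2% of windows shared), Hist1h4i (28.9%), Hist2h2ac (38.6%) and H2afy (0%) are not among the 34. Hist1h2ab, Hist1h2ai, Hist1h2ak, Hist1h2an, Hist1h2bq, Hist1h3e, Hist1h3i and Hist1h4k are. The libraries do not mark strand, and the H2A genes overlap short predicted genes on the opposite strand, so reads from the 2 strands cannot be told apart.

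Of the other tested H2A genes, Hist1h2ai was at 24.002, 23.6 and 23.8 FPKM in WT and 22.1, 20.2 and 13.6 FPKM in KO libraries, with every KO library below WT (difference -0.37, limma adjusted p = 0.188). Hist1h2ak was at 5.62, 9.64 and 4.37 FPKM in WT and 4.32, 3.38 and 1.44 FPKM in KO libraries (-0.91, limma adjusted p = 0.107). Hist1h2ab was at 1.90, 1.69 and 1.58 FPKM in WT and 0.548, 1.14 and 0 FPKM in KO libraries (-0.87, limma adjusted p = 0.0923). Neither gene had a KO library that reached the lowest WT library, and neither passed. Hist3h2a, which has a long 3′ UTR and overlaps the exons of Trim17, was at 8.61, 7.72 and 8.85 FPKM in WT and 6.13, 7.27 and 6.76 FPKM in KO libraries, also without overlap (-0.28, limma adjusted p = 0.216). Hist1h2ae (10.7 to 17.5 FPKM in WT and 7.19 to 11.6 FPKM in KO) and Hist1h2ac (0.903 to 1.87 and 0.641 to 1.56 FPKM) overlapped.

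Hist1h2an was the H2A gene whose difference pointed the other way. It was at 7.34, 6.08 and 6.11 FPKM in WT and at 3.53, 17.3 and 11.7 FPKM in KO replicates 1, 2 and 3, so the KO libraries lay on both sides of WT (difference 0.44 ± 0.42, limma adjusted p = 0.533). Without KO replicate 1 it was higher in KO libraries by 1.03 (limma adjusted p = 0.0216). The pseudogene Hist1h2al, under the level tested, was at 0, 0 and 0.423 FPKM in WT and 0, 3.06 and 2.44 FPKM in KO replicates 1, 2 and 3, with the same 2 KO libraries above the others. Summed over the 20 H2A genes, the level was 752, 768 and 773 FPKM in WT and 726, 637 and 487 FPKM in KO libraries, 80.7% of the WT mean and without overlap.

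H2B genes gave no call and no gene without overlap among the 4 tested. Hist1h2bc, the highest, was at 13.3, 25.7 and 25.9 FPKM in WT and 21.1, 24.2 and 15.5 FPKM in KO libraries, a difference of -0.05 with a 95% confidence interval of -0.62 to 0.51. Hist2h2be ranged from 4.04 to 6.49 FPKM in WT and from 3.37 to 4.08 FPKM in KO libraries, Hist3h2ba from 0.274 to 4.38 and from 0.668 to 2.07 FPKM, and Hist1h2bq from 1.23 to 1.92 and from 1.33 to 1.70 FPKM. The lowest library was a WT library for 3 of these 4 genes. The summed level of the 19 H2B genes in KO libraries was 95.3% of the WT mean, with overlapping groups. Hist1h2bg, an H2B gene under the level tested, had every KO library above WT, at 0.518, 0.552 and 0.518 FPKM in WT and 1.35, 0.702 and 1.79 FPKM in KO libraries, from 21 recovered reads in all.

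Linker histone H1 genes varied within the WT group. Hist1h1b was at 26.7, 48.0 and 61.4 FPKM in WT and 30.2, 22.8 and 23.1 FPKM in KO replicates 1, 2 and 3, so WT replicate 1 lay among the KO libraries. Its difference was -0.75 ± 0.26 (limma adjusted p = 0.0973), and without WT replicate 1 it fell by 1.08 and passed (limma adjusted p = 0.0153). Hist1h1e, whose model overlaps that of Hist1h2be on the same strand, was at 25.5, 26.7 and 31.2 FPKM in WT and 23.9, 19.7 and 23.2 FPKM in KO libraries, without overlap (-0.31, limma adjusted p = 0.141). Hist1h1c was at 14.4, 17.9 and 14.1 FPKM in WT and 20.6, 17.0 and 13.6 FPKM in KO libraries (0.12, 95% confidence interval -0.25 to 0.49), and Hist1h1a ranged from 1.37 to 2.79 and from 0.928 to 2.47 FPKM. The summed level of the 6 H1 genes in KO libraries was 73.6% of the WT mean, with overlapping groups.

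Over the 24 tested replication-dependent genes, 21 had a negative difference and the median was -0.39 on the log2(FPKM + 1) scale, beside a median of -0.0021 over all 11371 genes tested. The KO libraries were all below the WT libraries in 12 of the 24, beside 16.6% of all genes tested, and all above in 0, beside 16.2%. An unadjusted limma p under 0.05 with a lower KO level was reached by 12 of the 24, beside 14.1% of all genes tested. Hist2h2ac, Hist1h3e, Hist1h3i, Hist1h2ab, Hist1h4k and Hist1h4h reached the level tested only through their WT libraries, with KO means under 1 FPKM. All of them are among the negative differences, so the filter itself adds to these counts and makes the median more negative. Relative to the WT mean of each gene, the median gene stood at -0.42, -0.45 and -0.58 in KO replicates 1, 2 and 3 and between -0.06 and 0.00 in the WT libraries, so the 3 KO libraries were alike in this measure. The genes under the level tested showed no such shift in sum: the 51 histone genes with a mean under 1 FPKM came to 10.7 to 18.9 FPKM in WT and 12.5 to 15.7 FPKM in KO libraries. Few reads stood behind them, with a median of 6 and at most 69 over all libraries for the 37 above 0. Hist1h2ag, Hist1h3c and Hist1h4m were above 0 in every WT library and at 0 in every KO library, from 5, 3 and 4 recovered reads. Hist1h2bg, given above, went the other way.

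**Figure D2:**
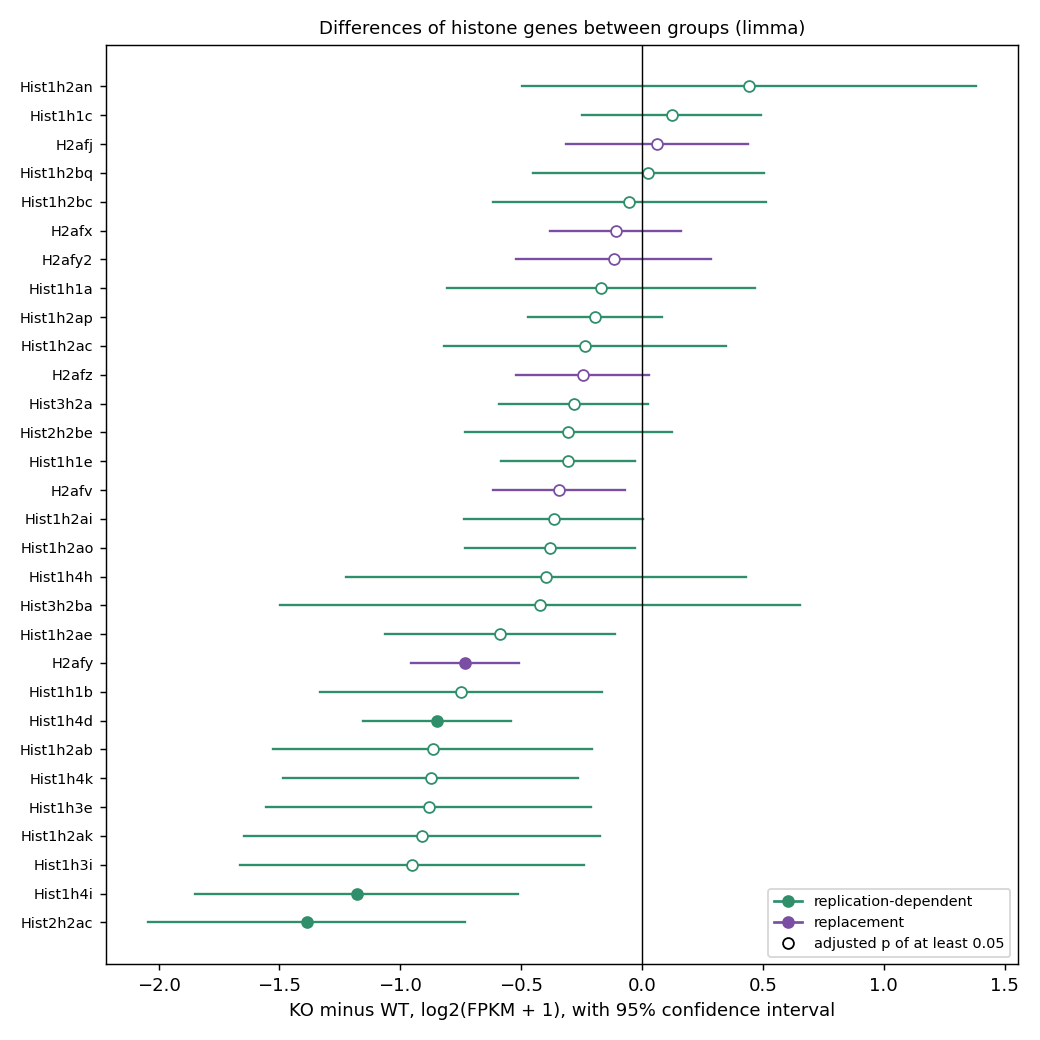
Difference between KO and WT libraries on the log2(FPKM + 1) scale for the 30 tested histone genes, with 95% confidence intervals from limma; green is replication-dependent, purple is replacement, and filled points passed at an adjusted p under 0.05. Of the 30 points, 26 lie below 0, and the filled points are Hist2h2ac, Hist1h4i, Hist1h4d and H2afy.

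Among the replacement histones, H2afy, which encodes the histone variant macroH2A1 that is enriched on the inactive X chromosome and at silent genes, fell in every analysis made. It lies at chr13:56073619-56136361 (minus strand) and was at 483, 535 and 518 FPKM in WT and 323, 324 and 277 FPKM in KO replicates 1, 2 and 3. No KO library came near the WT range, and each value rested on at least 10237 recovered reads. It fell by 0.73 ± 0.10 (SE, n = 3 and 3; limma adjusted p = 0.00304), to 60.1% of the WT mean. The call held in 13 of 13 alternative analyses (limma adjusted p from 0.000243 to 0.0361), including that without KO replicates 1 and 3, the 2 libraries with Xist. KO replicate 2, which like the WT libraries held Ddx3y and no Xist, was at 324 FPKM, and the part of sex in the level of H2afy was not tested. Its relative H2afy2, which encodes macroH2A2, was at 6.70, 7.37 and 6.03 FPKM in WT and 5.42, 7.98 and 5.17 FPKM in KO libraries, with overlap (-0.12, 95% confidence interval -0.52 to 0.29).

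The other replacement histones did not pass. H2afz and H2afv encode the 2 forms of H2A.Z, a variant found at promoters. H2afz was at 425, 498 and 517 FPKM in WT and 412, 454 and 351 FPKM in KO libraries, with overlap (-0.25, 95% confidence interval -0.52 to 0.03). H2afv was at 194, 220 and 220 FPKM in WT and 192, 168 and 142 FPKM in KO libraries, where KO replicate 1 lay just below WT replicate 1 (-0.34 ± 0.12, limma adjusted p = 0.104). With the libraries rescaled to the same sum it passed (limma adjusted p = 0.0486). H2afx, whose protein is phosphorylated at DNA breaks, was at 254, 321 and 322 FPKM in WT and 269, 306 and 253 FPKM in KO libraries (-0.11, 95% confidence interval -0.38 to 0.16). H2afj was at 68.4, 71.4 and 77.3 FPKM in WT and 80.0, 94.7 and 56.6 FPKM in KO libraries (0.06, 95% confidence interval -0.32 to 0.44). H2afb1, H2afb2 and H2afb3, genes of a short H2A variant of the testis, and the pseudogenes H2af-ps and H2afy3 were at 0 in every library.

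Over the 6 tested replacement genes, 5 had a negative difference and the median was -0.18. In 2 of the 6, H2afy and H2afv, the KO libraries were all below the WT libraries, beside 16.6% of all genes tested. KO replicate 3 was the lowest library for all 6, and for 9 of the 24 replication-dependent genes, beside 19.5% of all genes tested. A KO library was the lowest for 27 of the 30 tested histone genes, beside 55.3% of all genes tested. Without KO replicates 1 and 3 the median of the replacement genes was -0.016.

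Summed over all genes of a class, the replication-dependent level was 898, 961 and 966 FPKM in WT and 859, 766 and 601 FPKM in KO replicates 1, 2 and 3, and the replacement level was 1432, 1653 and 1660 FPKM in WT and 1282, 1355 and 1085 FPKM in KO replicates 1, 2 and 3. KO means were 78.8% of WT for the first and 78.4% for the second, and neither pair of groups overlapped. The replication-dependent sum was 62.7, 58.1 and 58.2% of the replacement sum in WT and 67.0, 56.5 and 55.4% in KO libraries, so the groups overlapped and no shift of one class against the other was seen in the sums. A few genes carried both sums. Without Hist1h2ao and Hist1h2ap the replication-dependent KO mean was 72.8% of WT, still without overlap, and without H2afy the replacement KO mean was 87.2% of WT, with overlap. In RNA from sorted bulk cells, fewer cells that make a histone mRNA and less of that mRNA per cell cannot be told apart.

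**Figure D3:**
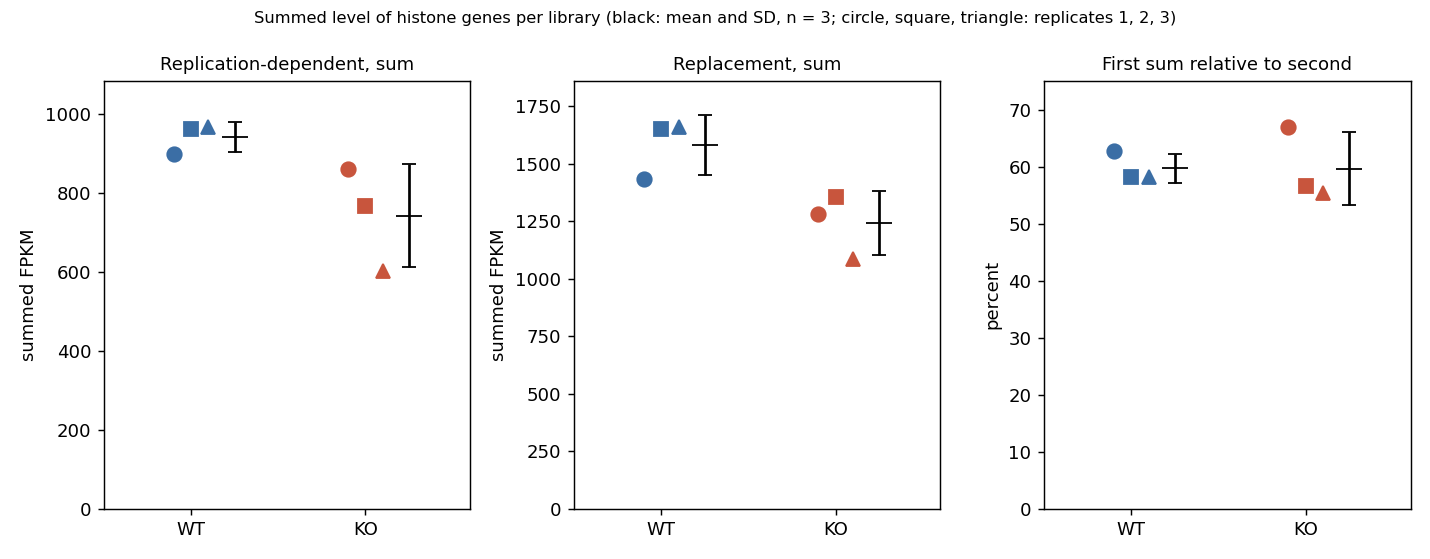
Summed FPKM of the 70 replication-dependent genes (left) and the 11 replacement genes (middle) and the first as a percent of the second (right), for each library by group; black marks are the mean and SD of 3 libraries. Both sums are lower in all KO libraries, with KO replicate 3 lowest, while the percentages of the groups overlap.

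Within the replication-dependent class, the annotated transcript ends were compared with the levels, since the SMART-Seq kit used here primes on poly(A) tails. Of the 44 genes with a stem-loop, 22 have a model that runs on for at least 100 bases after it, and 14 of these 22 contain the poly(A) signal AATAAA in a transcript. In this group the median level was 0.730 FPKM and 9 of 22 genes reached a mean of 1 FPKM. Among the 22 that stop within 100 bases of the stem-loop, 2 contain AATAAA, the median was 0.292 FPKM and 5 reached 1 FPKM, among them Hist1h2ao and Hist1h2ap. Among the 26 without a stem-loop in the model, 6 contain AATAAA, the median was 0.476 FPKM and 10 reached 1 FPKM. The 3 ranges overlapped widely, and how much histone mRNA without a poly(A) tail the libraries hold was not tested. Of the replication-dependent genes that fell, Hist1h4d and Hist1h4i run on in GENCODE M21 and Hist2h2ac stops within 100 bases. None of these genes contains AATAAA in a GENCODE M21 transcript. The FPKM of Hist1h4d and Hist1h4i imply other gene models, of 393 and 537 bases or multiples of these. Their GENCODE M21 transcripts have 1138 and 727 bases. For such genes it is not known whether the authors' models run past the stem-loop.

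**Figure D4:**
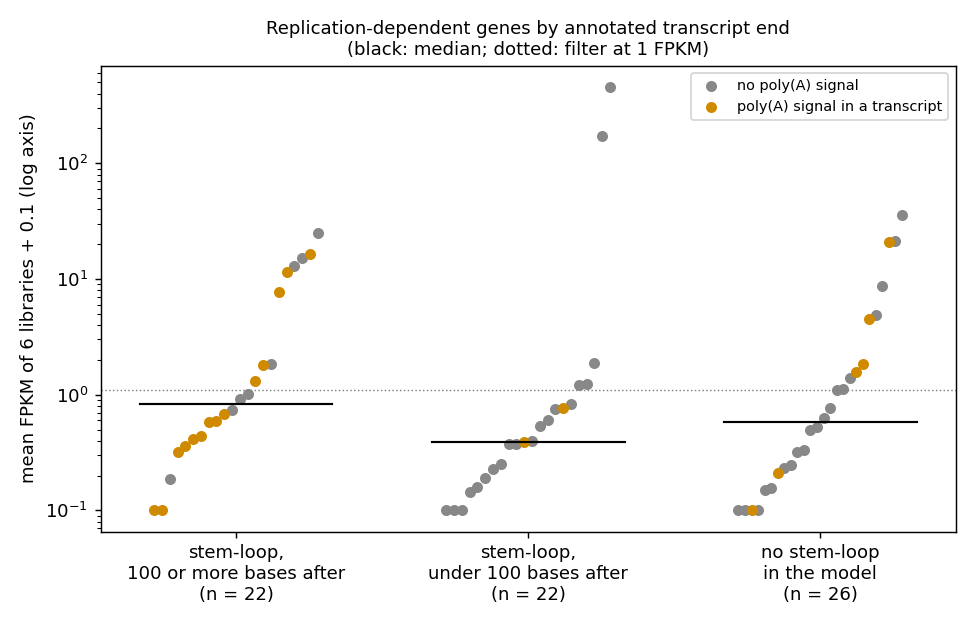
Mean FPKM of 6 libraries + 0.1 (log axis) for the 70 replication-dependent genes by the end of their annotated transcripts; orange points hold AATAAA in a transcript, black lines are medians, and the dotted line is the filter at 1 FPKM. The highest 2 points, Hist1h2ao and Hist1h2ap, are in the group whose models stop within 100 bases of the stem-loop.

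Promoters of 250 bases before to 50 bases after the start were taken from RefSeq (GRCm38.p6), where 70 of the 81 genes matched by symbol and position with 71 promoters. They were searched on both strands for CCAAT, the TATA box TATAAA and the E2F-type motif TTTNNCGC, and matches of different motifs may overlap. CCAAT was found in 54 of 63 replication-dependent promoters (85.7%) and 7 of 8 replacement promoters (87.5%), against 37.4% of all 32851 promoters. TATAAA was found in 35 of 63 (55.6%) and 0 of 8, against 13.6%. TTTNNCGC was found in 19 of 63 (30.2%) and 0 of 8, against 5.17%. The promoters of the 4 histone genes that fell are printed, with matches in capitals.
Hist1h4d: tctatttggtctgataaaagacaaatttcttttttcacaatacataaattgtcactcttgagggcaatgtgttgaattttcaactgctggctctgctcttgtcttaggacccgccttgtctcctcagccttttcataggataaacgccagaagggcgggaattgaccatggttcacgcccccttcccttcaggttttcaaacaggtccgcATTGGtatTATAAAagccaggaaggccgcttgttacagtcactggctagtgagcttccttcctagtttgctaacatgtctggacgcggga
Hist1h4i: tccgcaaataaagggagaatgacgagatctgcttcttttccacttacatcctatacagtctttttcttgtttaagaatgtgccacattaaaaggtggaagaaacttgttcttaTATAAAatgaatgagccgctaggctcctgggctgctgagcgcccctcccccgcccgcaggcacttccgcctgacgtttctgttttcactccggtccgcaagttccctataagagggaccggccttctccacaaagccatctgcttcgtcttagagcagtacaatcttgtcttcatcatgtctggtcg
Hist2h2ac: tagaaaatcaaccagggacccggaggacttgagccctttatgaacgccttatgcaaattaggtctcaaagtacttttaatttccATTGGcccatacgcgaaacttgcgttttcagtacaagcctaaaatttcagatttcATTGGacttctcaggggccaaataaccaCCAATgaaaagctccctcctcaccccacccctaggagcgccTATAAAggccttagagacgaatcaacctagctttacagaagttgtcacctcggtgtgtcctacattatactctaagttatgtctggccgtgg
H2afy: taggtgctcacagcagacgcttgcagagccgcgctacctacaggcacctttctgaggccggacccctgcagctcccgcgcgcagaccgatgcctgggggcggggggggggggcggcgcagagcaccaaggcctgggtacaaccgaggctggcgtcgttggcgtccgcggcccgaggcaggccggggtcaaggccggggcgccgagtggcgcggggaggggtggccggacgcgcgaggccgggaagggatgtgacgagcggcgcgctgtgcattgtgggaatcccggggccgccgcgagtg
They lie at chr13:23581318-23581617 (plus strand), chr13:22041313-22041612 (minus strand), chr3:96220831-96221130 (minus strand) and chr13:56135501-56135800 (minus strand). Hist1h4d and Hist2h2ac hold TATAAA shortly before the start and CCAAT, which reads as ATTGG where it lies on the other strand, while Hist1h4i holds TATAAA only, farther from the start. None of the 3 motifs is in this window of H2afy, the 1 of 8 replacement promoters without CCAAT.

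Histone variants outside the symbol rule did not pass. H3f3a and H3f3b encode the same replacement histone, H3.3. H3f3a was at 197, 209 and 217 FPKM in WT and 175, 174 and 167 FPKM in KO libraries, without overlap (-0.27, limma adjusted p = 0.0757). H3f3b was at 741, 792 and 762 FPKM in WT and 963, 887 and 774 FPKM in KO libraries, with overlap (0.19, limma adjusted p = 0.291). Cenpa, the histone H3 of centromeres, was at 39.6, 46.3 and 45.6 FPKM in WT and 41.1, 53.9 and 33.4 FPKM in KO libraries, also with overlap. Of the 5 genes tested in this list 0 passed in limma's test in either direction, 1 at an unadjusted p under 0.05 and 1 lower with the libraries rescaled to the same sum (H3f3a, limma adjusted p = 0.0413).

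Of 18 tested genes that transcribe histone genes or form the 3′ end of their mRNAs, 2 were lower and 0 higher, with a median difference of -0.08. The shares over all genes tested were 5.43% lower and 5.48% higher. Slbp, whose protein binds the stem-loop, was at 72.7, 79.3 and 80.9 FPKM in WT and 78.7, 84.0 and 66.4 FPKM in KO libraries (-0.03, limma adjusted p = 0.897). Npat, the coactivator of histone gene clusters, was at 6.69, 7.78 and 7.81 FPKM in WT and 5.26, 8.75 and 7.23 FPKM in KO libraries (-0.08, limma adjusted p = 0.811). Both overlapped between the groups. The calls were Sympk, a scaffold of the cleavage machinery (4.22 against 1.998 FPKM, -0.80, limma adjusted p = 0.0232), and Upf1, a helicase of histone mRNA decay (24.4 against 15.9 FPKM, -0.61, limma adjusted p = 0.0451). Sympk lost its call in 7 of 12 alternative analyses and Upf1 in 9 of 13, and over the alternatives 0 to 4 genes of the list were lower and 0 to 1 higher.

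Among 15 genes for histone supply at the replication fork the median was -0.23. In this list 1 gene was lower and 0 higher, beside 5.43% and 5.48% of all genes tested. It was Chaf1a, the large subunit of the assembly factor CAF-1, at 25.3, 25.0 and 28.1 FPKM in WT and 15.4, 15.9 and 15.5 FPKM in KO libraries, which fell by 0.70 ± 0.11 (SE, n = 3 and 3; limma adjusted p = 0.00464). Of 17 genes for histone exchange outside replication, 2 were lower and 0 higher, beside the same shares, with a median of -0.13. Hjurp, the chaperone of Cenpa, was at 28.5, 27.9 and 25.6 FPKM in WT and 14.2, 8.89 and 15.4 FPKM in KO libraries and fell by 1.07 ± 0.18 (SE, n = 3 and 3; limma adjusted p = 0.00841). Anp32e, which removes H2A.Z from chromatin, was at 84.0, 91.8 and 81.7 FPKM in WT and 58.5, 60.7 and 59.9 FPKM in KO libraries and fell by 0.52 ± 0.09 (SE, n = 3 and 3; limma adjusted p = 0.00929). Chaf1a lost its call in 1 of 13 alternative analyses, Anp32e in 2 and Hjurp in 0. The KO libraries of all 3 genes were below every WT library, and H2afz and H2afv, the genes of H2A.Z, did not pass while Anp32e did; whether they differ from it was not tested.

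Cell cycle genes were also examined, beside 5.43% lower and 5.48% higher among all genes tested. Of 30 S phase genes, 10 were lower and 0 higher, with a median of -0.44, and their sum was 2222 to 2417 FPKM in WT and 1659 to 1996 FPKM in KO libraries. Uhrf1, which carries DNA methylation through replication, fell by 1.13 (58.0 against 26.1 FPKM, limma adjusted p = 0.00164), and Pola1, the catalytic subunit of DNA polymerase alpha, fell by 1.02 (11.3 against 5.11 FPKM, limma adjusted p = 0.00696). Of 25 G2 and M phase genes, 18 were lower and 0 higher, with a median of -0.62, Top2a among them (39.1 against 18.6 FPKM, limma adjusted p = 0.00167). Without KO replicates 1 and 3 the lower counts were 2 of 30 and 4 of 25, and with each library left out in turn they were 2 to 14 and 5 to 17, lowest without WT replicate 2. The part of cell cycle genes in the histone differences was not tested.

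**Figure D5:**
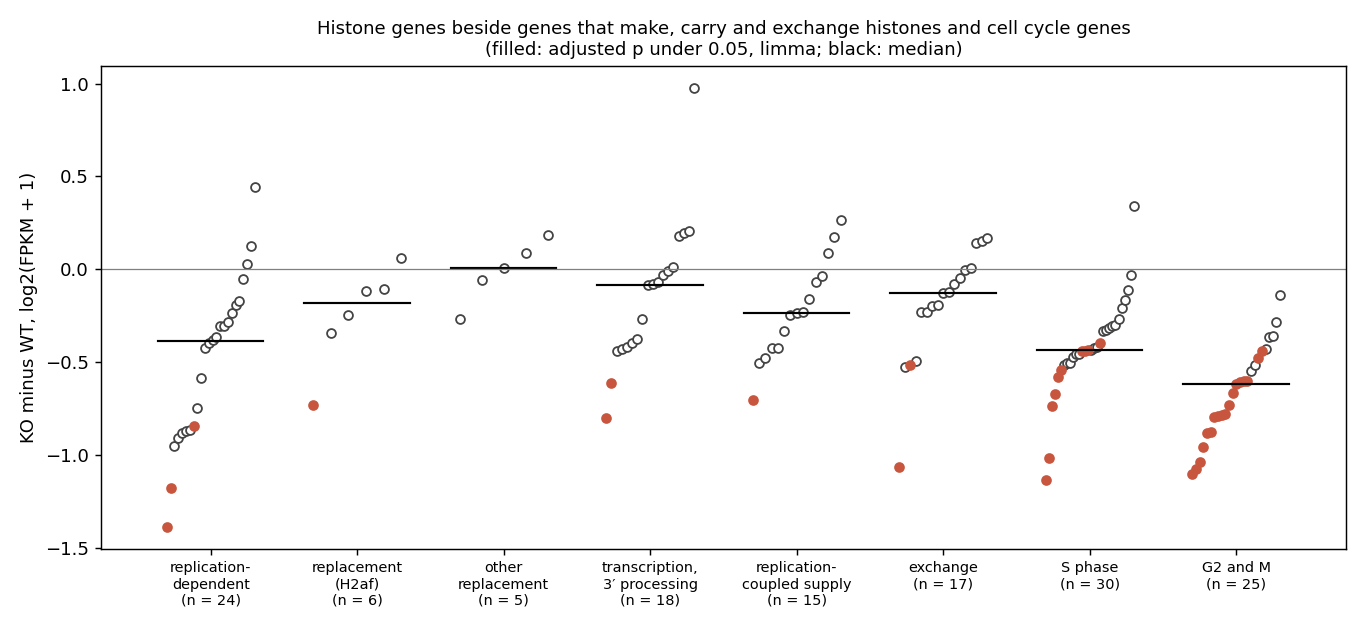
Difference between KO and WT libraries on the log2(FPKM + 1) scale for tested histone genes, for genes that make, carry and exchange histones and for cell cycle genes; filled points passed at an adjusted p under 0.05 (limma), and black lines are medians. The median was -0.39 for the replication-dependent genes and -0.44 for the S phase genes. Some of the former reached the level tested only through their WT libraries, which makes their median more negative. The highest point, Ccne1, did not pass.

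Markers of other cells also moved between the libraries. The shares over all genes tested were 5.43% lower and 5.48% higher. Of 11 tested erythroid genes 6 were higher in KO libraries, and the list's sum was 556 to 993 FPKM in WT and 1142 to 2137 FPKM in KO libraries. Of 6 mast cell genes 3 were higher, with sums of 41.8 to 72.1 and 61.0 to 112 FPKM, where the proteases Cma1 and Tpsb2 were both at 0 in WT replicates 1 and 2. The sums of B and plasma cell genes were 350 to 372 FPKM in WT and 168 to 3618 FPKM in KO libraries, with 0 of 8 called. Those of T and NK cell genes were 406 to 473 and 250 to 363 FPKM, with 1 of 5 lower and 1 higher. Most of these sums was Nkg7, the gene called lower, at 352 to 417 FPKM in WT and 187 to 291 FPKM in KO libraries. Klrb1c, called higher, and Lat, not called, had every KO library above WT. Cd3d, Cd3e and Cd3g were at most at 0.238 FPKM in any library. The sums of neutrophil genes were 145 to 256 and 47.3 to 199 FPKM, with 0 of 8 called. Those of macrophage genes were 31.6 to 40.0 and 20.8 to 37.4 FPKM, with 1 of 5 lower. Of the LSK genes, Cd34 and Flt3 were lower and Slamf1, Procr and Gata2 were higher. The part of these cells in the histone differences was not tested, beyond the values given without KO replicates 1 and 3.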

How the data were processed

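The values used were the FPKM deposited by the authors for 38926 gene symbols in 6 libraries. SMART-Seq v4 and Nextera XT kits were used, per the labels' protocols, and do not mark strand. The submitters' processing notes name build mm10, bcl2fastq 2.19.1.403, TopHat2 2.1.1, HTSeq 0.6.1 and DESeq2 1.18.1, without their roles; the annotation was not given in the sources used here. Ratios between libraries were whole-number ratios for 17182 of 17183 genes above 0 in at least 2 libraries (relative tolerance 1e-07), which gave whole reads. For 29 histone genes the implied length equalled that of GENCODE M21. For 38 it did not, and the recovered reads of these are lower bounds.

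KO and WT libraries were compared with limma 3.58.1 (R 4.3.3; lmFit and eBayes with a trend) on log2(FPKM + 1), which understates fold changes of low genes, for the 11371 genes whose mean over 6 libraries reached 1 FPKM. The test was two-sided, with Benjamini-Hochberg adjustment over all of them and a threshold of 0.05. The script was tested on simulated data. Tables and plots used Python 3.11.15, numpy 2.4.6, pandas 2.3.3 and matplotlib 3.10.9. Positions and transcripts were from GENCODE M21.

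Alternatives were a pseudocount of 0.1, no filter, a mean of at least 5 FPKM, libraries rescaled to one sum (TPM), replicate number as a block, each library left out, KO replicates 1 and 3 left out, and voom on recovered reads. The histone genes, companion lists and alternatives were chosen with earlier results of these data known. Named were all histone genes tested, some below it that were above 0 in at least 3 libraries, called genes of each list (at most 6, by smallest p) and Slbp, Npat, H3f3a, H3f3b and Cenpa. Ccne1, Lat, Cd3d, Cd3e, Cd3g, Hist2h2aa1, Hist2h2aa2 and the genes at 0 were named after their values were seen. A result of the LSK list is not reported here.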

Additional observations from a re-analysis of the deposited data

How the results depend on the processing

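Direction held for the 4 called histone genes in every alternative that tested them; calls lost are given with each gene. Counts over all genes depended on the settings. Genes lower in KO libraries, 617, became 253 without a filter on low values, over 19373 genes, and 249 without KO replicates 1 and 3, and 158 (without WT replicate 2) to 834 (without KO replicate 3) with each library left out. Genes higher, 623, became 335, 265 and 212 to 764 in the same order. Labels give both groups replicates 1 to 3, but same-numbered libraries did not deviate together (correlation of deviations -0.03, 0.05 and -0.12), so the numbers do not pair them. With the replicate block 369 genes were lower.

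The 3 replication-dependent genes called lower became 1 to 4 with each library left out (1 without WT replicate 2) and 0 without KO replicates 1 and 3. The 0 called higher became 0 to 1 and 1, each time Hist1h2an. The 1 replacement gene called lower became 2 with libraries rescaled to TPM, H2afv being added. The median of the replication-dependent genes, -0.39, became -0.17 with no filter (61 genes), -0.50 with voom and -0.53 to -0.36 with each library left out. The median of the replacement genes, -0.18, became -0.016 without KO replicates 1 and 3, which leaves 1 KO library assumed to vary like the others, and -0.31 (without KO replicate 2) to -0.10 (without KO replicate 3) with each library left out; it was -0.28 without WT replicate 1. The cause of these changes was not tested, except that dropping libraries and filters changes the number of libraries and genes tested. Depth limits the low genes: Hist2h2ac rests on 34 recovered reads in all and Hist1h4k on 12.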
